A study of Nilaparvata lugens with 9 samples.

Results

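The expression table of *Nilaparvata lugens*, the brown planthopper, listed 767 miRNA names, of which 562 carry the prefix PC- and were predicted as candidates from the genome. The candidates described here are the 80 PC- names that stand on at least 2 rows of the table, each row pairing a mature sequence with one predicted hairpin, and each name was counted once. PC-3p-2015_2755 and PC-5p-24585_327 were left out by the selection rule, but both stood on 1 row, so leaving them out removed no name. All 80 stood on exactly 2 rows, the largest number of rows of any name in the table. Small RNA came from whole bodies of untreated short-winged female adults at 1, 3 and 5 days after emergence (1 d, 3 d and 5 d), with 3 libraries per phase and 9 in all. Each library was made from RNA of several insects, and no source used here says whether the libraries of a phase are separate pools, so the p-values measure only the spread between these libraries.

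A miRNA is cut from a hairpin precursor by Drosha and Dicer, and one arm of the hairpin, named 5p or 3p, is loaded into an Argonaute protein. The bases that follow the first base at the 5′ end form the seed, which pairs with target mRNAs, so miRNAs of one seed are usually grouped into a family. The same mature miRNA can be made from more than one locus, as is known for many animal miRNA families, and reads of such a miRNA cannot be assigned to one locus by sequence.

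The 10 most abundant candidates are shown because they hold most of the reads, with T written for U as in the table and the seed (bases 2 to 8) in capitals.
PC-5p-102_75534: tCTTTGGTgatgtaagctgtat
PC-5p-41_172656: tACCCTGTagttccgagtttgt
PC-5p-703_8432: tTTGGCAAggtgtatgtaatcc
PC-5p-280_24071: tTTGTGACcgatacaatgtgca
PC-3p-305_21991: tTTGTTCGtcaggctcaagtca
PC-5p-542_11497: tAAGTAGTagtgccgtagaga
PC-5p-387_16479: tGGTAACTgtgtttacctgatgct
PC-3p-819_7098: cGGACGGAgaactgataaggga
PC-3p-7999_839: aATGATGCatacacttagccactc
PC-3p-2603_2159: tTTAATTAccctgagtgga
Of these, 8 begin with T, and no 2 share a seed.

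Some of these sequences resemble known miRNAs of the same table, whose prefixes name the species of the reference (tca is *Tribolium castaneum*). PC-5p-102_75534 has the seed of miR-9a, which in *Drosophila* limits the number of sensory organ precursors. PC-5p-41_172656 has the seed of miR-10, a miRNA encoded in the Hox complex, and shares 90.9% of its bases with it. PC-3p-819_7098 holds a run of 21 nt in common with an isoform of miR-184, which in *Drosophila* is needed for development of the female germline. It differs from that isoform at base 22 only, and there both of its listed hairpins hold the C of the isoform. Its 2 hairpins thus contain the sequence of the miR-184 isoform, and the candidate is a variant of it at the last base. The forms listed in the table are shown for comparison, those of miR-9a and miR-184 being variants of the reference by their names.
tca-miR-9a-5p_R+1: tCTTTGGTtatctagctgtatg
tca-miR-10-5p: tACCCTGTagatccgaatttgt
tca-miR-184-3p_1ss1TC: cGGACGGAgaactgataagggc
PC-3p-305_21991 has the seed of miR-375 and PC-5p-387_16479 that of miR-2765. PC-3p-28469_285, PC-3p-77335_97 and PC-3p-9407_736 carry the seed of miR-279, which in *Drosophila* acts in the formation of CO2-sensing neurons, and PC-3p-55615_142 carries that of the 3p arms of miR-9a and miR-9b. In all, 9 of the 80 candidates (11.2%) share a seed with a known name, against 36 of the 482 PC- names on 1 row (7.47%). PC-5p-542_11497 has another seed than miR-252b but shares a run of 19 nt with it, and PC-5p-61794_126 likewise shares 21 nt with miR-210-5p.

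The 160 rows lay at 154 distinct positions on 108 scaffolds, of which 95 held 1 of the candidates. Positions are as deposited, on a genome build that no source used here names. For 29 candidates both hairpins were on one scaffold, 24 of them on the same strand and 5 on opposite strands, and for 51 they were on different scaffolds. The distance between the starts of hairpins on one scaffold ran from 38 to 253547 nt with a median of 15932 nt, and 12 pairs were within 10000 nt. For 34 candidates the hairpin sequences were identical, 13 of them on one scaffold and 21 on different scaffolds. For the other 46 the identity of the aligned hairpins ran from 35.5% to 99.1% with a median of 92.0%. Identity was at least 90% in 25 of them and under 60% in 4. With hairpins of one sequence counted once, 119 remained, and 46 of the 80 names had more than one.

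Several candidates were neighbours. Scaffold NW_019106884.1 held 8 of them. There PC-3p-77335_97 and PC-3p-9407_736, both with the miR-279 seed, stood 4373 nt apart at both of their listed positions, with 138134 nt between the copies of PC-3p-77335_97. The sequence of PC-3p-9407_736 was contained in 5 precursors of this scaffold, so its listed positions are not all of them. PC-3p-28469_285, the same sequence without its last base, was listed there at 122813 and 179581. PC-5p-280_24071 and PC-5p-542_11497 were neighbours on both scaffolds that listed them, 4879 nt apart on NW_019105633.1 and 4595 nt apart on NW_019107790.1. The hairpin that carries PC-5p-703_8432 and PC-3p-7999_839 was listed with the same sequence on opposite strands of NW_019106712.1, starting at 31609 and 53366. PC-3p-305_21991 was also on opposite strands, with starts 1104 nt apart. The hairpins of PC-3p-226389_22 overlapped on opposite strands, with starts 38 nt apart.

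Groups of candidates differed by small shifts or by a few bases. A group of 4 with a common core is shown because all 4 sequences were contained in the same number of precursors of the table, 8 each.
PC-5p-10471_673: tTTGGTAAagtgaggaagttgt
PC-5p-116320_58: tTTTGGTAaagtgaggaagtt
PC-5p-41806_194: tTTTGGTAaagtgaggaagttgt
PC-5p-53297_149: tTTTGGTAaagtgaggaagttg
PC-5p-10471_673 begins 1 base after the others and so has another seed. A second group held PC-5p-23491_341, PC-5p-25818_313 and PC-5p-38161_213, each contained in 10 precursors, and PC-5p-174276_33, contained in 2. The most abundant sequence with that core was PC-5p-3301_1748, with 1851.5 reads, which the table lists on 1 row. Of the 80 candidates, 22 were contained in more than 2 listed precursors, 32 in exactly 2 and 26 in fewer, so the number of rows of a name was not the number of precursors that hold its sequence. Among PC- names on 1 row, 66 were contained in more than 1 precursor. The candidates had 72 distinct seeds, and 13 of them shared 5 seeds.

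A further group, with the seed AATATCA, is shown because its members lie close together on NW_019106910.1.
PC-5p-16744_461: cAATATCAgcccgcagtcacga
PC-5p-51790_154: cAATATCAgcccgcaatcacga
The third sequence of this seed, PC-5p-14999_506, was listed at starts 113358 and 114042, between the positions of PC-5p-16744_461 at 106971 and 122903.

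Mature sequences did not always match the hairpins they were listed with. Of the 80, 54 matched both hairpins, 7 differed from one and 19 (23.8%) differed from both, always at 1 base. By rows, 45 of 160 (28.1%) held a difference, against 202 of 482 PC- names on 1 row (41.9%). Written with the precursor base first, the position from the 5′ end of the mature sequence and the mature base last, the differences from both hairpins among the 10 most abundant candidates were T14C in PC-5p-41_172656, C22A in PC-3p-819_7098 and T19A in PC-3p-2603_2159. The difference was at the last base in 7 candidates and within the seed in 6.

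The candidates had a median length of 22 nt, with a range of 18 to 26 nt. Of the 80, 31 (38.75%) were 22 nt long and 59 (73.75%) were 21 to 23 nt long, against 106 and 223 (46.3%) of the 482 PC- names on 1 row. Only 1 of the 80 (1.25%) was 25 nt long, against 11.2% of the names on 1 row. The shortest were PC-3p-165920_36 with 18 nt and, among the 7 of 19 nt, PC-5p-120218_56 and PC-3p-2603_2159. The longest included PC-5p-11737_614, PC-3p-27835_291 and PC-3p-54772_144, among the 5 of 26 nt. The first base was T in 52 (65%) against 56.2%. The 5p arm gave 39 and the 3p arm 41.

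The median predicted folding energy (dG, where lower means a more stable hairpin) was -39.65 kcal/mol, against -28.9 kcal/mol for names on 1 row. The middle 50% of the candidates lay between -44.0 and -28.2 kcal/mol, and the middle 50% of the names on 1 row between -39.1 and -21.6 kcal/mol, so the ranges overlapped. Single rows ran from -72.9 to -15 kcal/mol. The lowest medians over both rows were those of PC-3p-226389_22 at -61.4, PC-3p-4791_1281 at -58 and PC-3p-229900_22 at -54.55 kcal/mol. In the 46 candidates with differing hairpins the 2 values differed by a median of 2.9 and by up to 52.8 kcal/mol. The C and G content of the hairpins had a median of 41.7%, against 39.25%. These contrasts are descriptions of the table and were not tested.

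**Figure D1:**
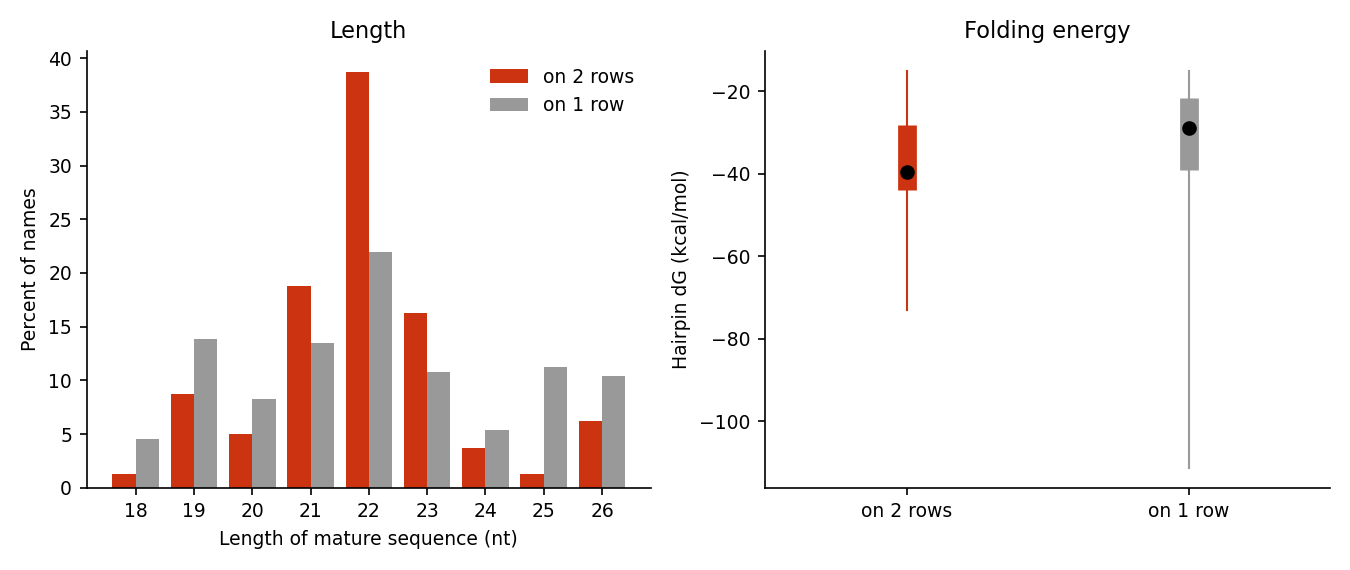
Percent of names by length in nt (left) and hairpin dG in kcal/mol (right) for the 80 candidates on 2 rows and the 482 on 1 row. On the right, dots are medians over names, thick bars the middle 50% and thin lines the lowest and highest row. Lengths of 21 to 23 nt make up 73.75% of the candidates on 2 rows, and their median dG is -39.65 kcal/mol.

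**Figure D2:**
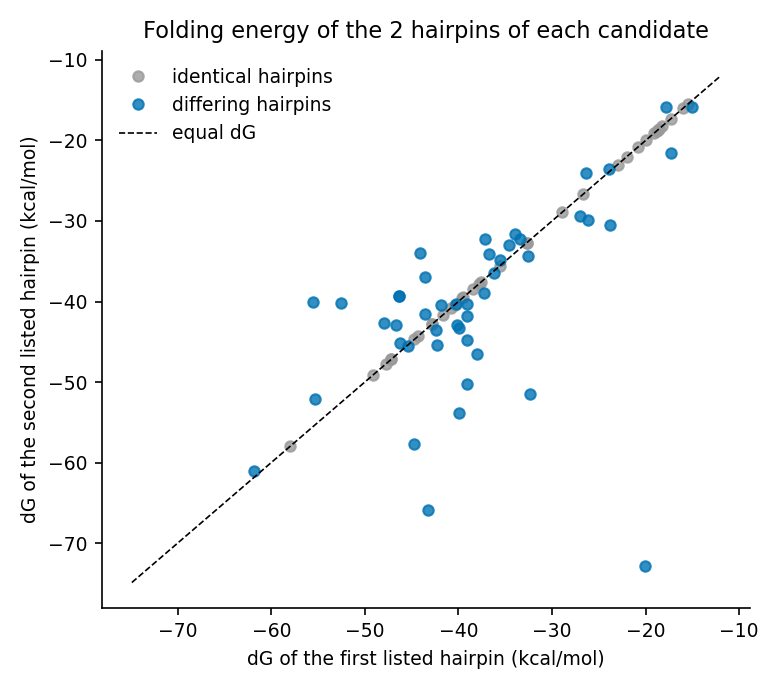
Folding energy of the 2 listed hairpins of each of the 80 candidates, in kcal/mol, with the first listed hairpin on the x axis and the second on the y axis. The 34 identical pairs lie on the dashed line of equal dG, and the 46 differing pairs lie on or beside it, by up to 52.8 kcal/mol.

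The deposited reads were the same on both rows of each candidate. Of their 518 values above 0, 296 (57.1%) were not whole, each a multiple of 0.5, in 79 of the 80 names, against 197 of 2077 (9.48%) for names on 1 row. In 26 candidates the reads summed over both rows equalled the number at the end of the name, and in 1 the reads of a single row did. Among the 482 PC- names on 1 row, the reads equalled that number in 207. Of the values above 0 of known names on 2 rows, 187 of 336 (55.7%) were not whole. No source used here says whether the table splits the reads of a sequence between its rows. Levels, reads and the filter on low counts below use the values of 1 row unless stated otherwise, and the sum over both rows is larger.

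The 9 libraries held between 972506 and 3184052 reads over the 759 distinct sequences. The whole-body label was checked against muscle, neural and reproductive markers. miR-1-3p was at 44350 to 61940, miR-133 at 2089 to 4277, miR-124 at 405.4 to 1803 and miR-275 at 11290 to 17800 CPM, reads scaled to a common library size, and the search for miR-989 matched no name. The 80 candidates together held 1.51% ± 0.253 (SD, n = 9) of the reads. The lowest share was 1.04% (95% Wilson interval 1.02% to 1.06%) in 1 d replicate 2, the shallowest library, and the highest 1.84% (1.82% to 1.85%) in 5 d replicate 1. Intervals cover counting error only. By phase the share was 1.26% ± 0.189 at 1 d, 1.60% ± 0.228 at 3 d and 1.67% ± 0.141 at 5 d (SD, n = 3 each).

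Abundance was uneven. The 2 most abundant candidates held 65.1% of the reads of all 80 and the 10 most abundant 95.1%. The mean over the 9 libraries, normalized with TMM factors, ranged from 0.302 to 5427 CPM with a median of 3.45 CPM. It was at least 1000 CPM in 3 candidates, at least 100 CPM in 10 and at least 10 CPM in 27, and it was under 1 CPM in 11. The median of reads over all libraries was 63.25, against 33.5 for names on 1 row. The first value is of 1 of the 2 rows of each candidate, so the 2 medians are not alike if the table splits reads between rows. Reads were present in all 9 libraries for 32 candidates and in at most 3 libraries for 13.

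Detection, taken as reads in all 3 libraries of a phase, was reached by 37 candidates (46.2%) at 1 d, 41 (51.2%) at 3 d and 45 (56.2%) at 5 d. The names on 1 row reached 24.7%, 26.3% and 27.4%. Of the 80, 32 were detected in every phase, 29 in none, and 2, 3 and 6 in a single phase, namely 1 d, 3 d and 5 d in that order. PC-3p-165920_36 had reads in 2 libraries, both of 5 d, with 7.5 and 10.5 reads, and PC-3p-229900_22 had 7.5 and 3.5 reads in 2 libraries of 5 d. In 18 candidates at least 50% of the summed CPM came from 1 library, and none of these passed the filter on low counts. PC-5p-120218_56 was one of them, with 66.6% in 1 d replicate 2, where it had 17 reads.

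Levels of the most abundant candidates are given in TMM-normalized CPM for replicates 1, 2 and 3 of each phase. PC-5p-102_75534, with the miR-9a seed, was at 4228, 4332 and 5472 at 1 d, 3847, 7341 and 7225 at 3 d, and 4570, 6230 and 5602 at 5 d. PC-5p-41_172656, with the miR-10 seed, was at 5476, 3487 and 4293, then 3128, 3968 and 4912, then 5401, 3248 and 5002. The phases overlapped for both, and their order changed between libraries. The edgeR log2 fold change for 5 d vs. 1 d was 0.23 ± 0.28 (SE) for PC-5p-102_75534 and 0.04 ± 0.28 for PC-5p-41_172656, with adjusted p of 0.858 and 0.986. With a library left out, the value of PC-5p-102_75534 ran from 0.087 to 0.27.

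The study's list of differentially expressed miRNAs required p below 0.05 and a log2 fold change above 1 in tests on normalized levels. The study names no adjustment for multiple testing, so its list and the adjusted edgeR p-values given here rest on unlike criteria. It described PC-5p-280_24071 and PC-3p-77335_97 as low at 1 d and 3 d and high at 5 d. PC-5p-280_24071, one of the candidates in that list, was at 911, 798 and 851 CPM at 1 d, 965, 800 and 792 at 3 d, and 1083, 947 and 881 at 5 d. Its 5 d and 1 d libraries overlapped, with a log2 fold change of 0.19 ± 0.22 (SE, edgeR adjusted p = 0.858), which ran from 0.031, without 5 d replicate 1, to 0.22 with other libraries left out. PC-5p-542_11497, its neighbour on both scaffolds, was at 779, 764 and 797 CPM, then 654, 642 and 805, then 705, 749 and 704. All 5 d libraries of PC-5p-542_11497 were below all 1 d libraries, with a log2 fold change of -0.12 ± 0.22 (SE, edgeR adjusted p = 0.896), which was 0.07 with library totals as the scaling.

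PC-3p-305_21991 was at 575, 742 and 754 CPM at 1 d, 581, 735 and 840 at 3 d, and 627, 1070 and 705 at 5 d. PC-5p-387_16479 was at 715, 240 and 461 CPM, then 319, 710 and 406, then 667, 336 and 747, so each phase spanned most of its range. PC-3p-819_7098, the candidate closest to miR-184, stayed within 295 to 398 CPM over all 9 libraries. The log2 fold changes for 5 d vs. 1 d were 0.21 ± 0.29, 0.30 ± 0.48 and 0.14 ± 0.25 (SE, edgeR). PC-3p-2603_2159 was at 53.5, 202 and 47.2 CPM at 1 d, 125, 85.8 and 75.2 at 3 d, and 162, 205 and 79.0 at 5 d, with a log2 fold change of 0.57 ± 0.61 for 5 d vs. 1 d. With a library left out it ran from 0.058, without 1 d replicate 3, to 1.52, without 1 d replicate 2.

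**Figure D3:**
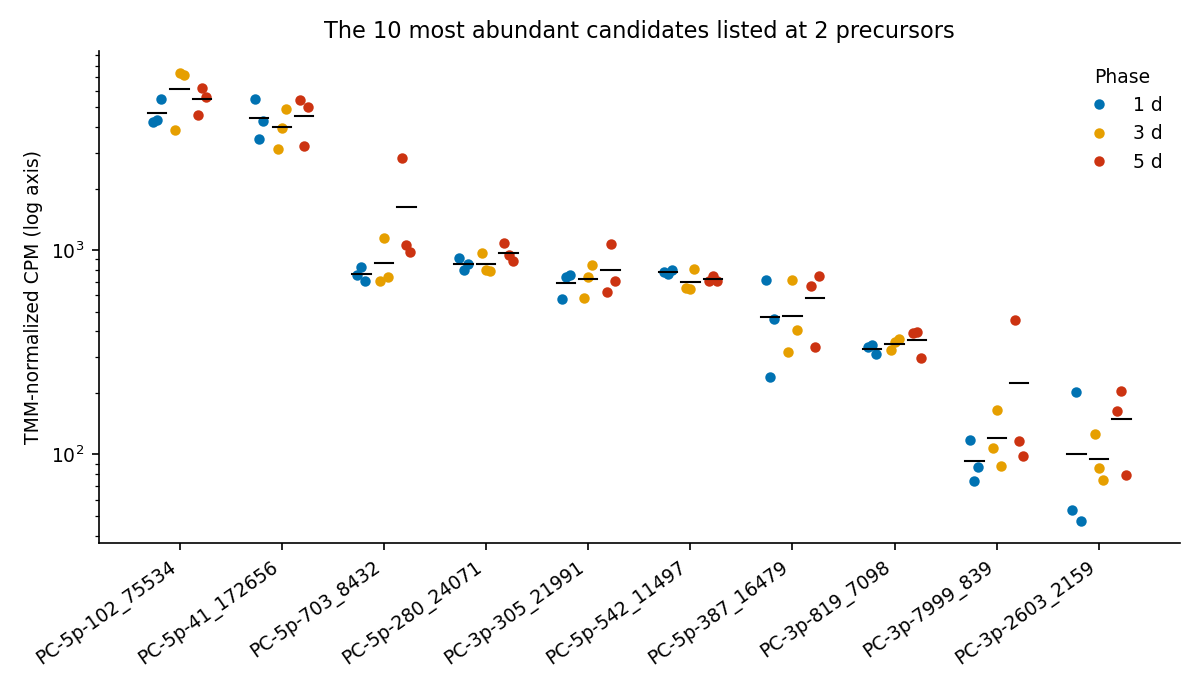
TMM-normalized CPM (log axis) of the 10 most abundant candidates in each of the 9 libraries, coloured by phase, with horizontal bars at the phase means. PC-5p-102_75534 and PC-5p-41_172656 lie between 3128 and 7341 CPM, and 5 d replicate 1 stands above the other libraries for PC-5p-703_8432 and PC-3p-7999_839.

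Both arms of one hairpin were candidates in the case of PC-5p-703_8432 and PC-3p-7999_839. PC-5p-703_8432 was at 752, 829 and 708 CPM at 1 d, 703, 1145 and 738 at 3 d, and 2821, 1058 and 975 at 5 d. PC-3p-7999_839 was at 117, 73.8 and 87.2 CPM, then 107, 166 and 88.3, then 453, 117 and 97.9. Both arms were highest in 5 d replicate 1. The 5p arm took 86.2% to 91.8% of the reads of both arms in every library. PC-5p-703_8432 had a log2 fold change of 1.08 ± 0.42 (SE) for 5 d vs. 1 d, with an edgeR p of 0.0295 and an adjusted p of 0.386, and all 5 d libraries lay above all 1 d libraries. Without 5 d replicate 1 the log2 fold change was 0.34 ± 0.32. PC-3p-7999_839 had a log2 fold change of 1.26 ± 0.59 (adjusted p = 0.473, edgeR), and 0.14 ± 0.43 without that library. For 5 d vs. 3 d the values were 0.91 ± 0.42 and 0.89 ± 0.59, and without 5 d replicate 1 they were 0.25 ± 0.32 and -0.14 ± 0.43.

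Other hairpins also gave both arms. Of the reads of both names, PC-5p-387_16479 took 86.0% beside PC-3p-2693_2090 (77.2% to 90.9% in single libraries). PC-5p-16744_461 took 86.9% beside PC-3p-187379_30 (65.9% to 100%) and PC-5p-23850_336 88.2% beside PC-3p-110771_62 (63.1% to 100%). PC-5p-387_16479 and PC-3p-2693_2090 share only the hairpin at 248147, and PC-5p-23850_336 and PC-3p-110771_62 only that at 72460. The sequence of PC-3p-187379_30 was contained in 5 precursors and that of PC-5p-16744_461 in 2. The shares of all of these pairs may mix reads of different hairpins. The 5p share was lower for PC-5p-149731_42 with PC-3p-28469_285 (5.43%) and PC-5p-60288_130 with PC-3p-67921_113 (39.3%) and PC-3p-63800_122 (26.2%). In these pairs the reads of PC-3p-28469_285 and PC-5p-60288_130 are of 1 of their 2 rows, and the other name stands on 1 row. PC-5p-60288_130 had 65 reads on 1 row and 130 over both, beside 100.5 of PC-3p-67921_113 and 183 of PC-3p-63800_122. These shares thus depend on whether reads are split between rows. The sequence of PC-5p-60288_130 was contained in 8 precursors and that of PC-3p-28469_285 in 5. The other arms of PC-5p-102_75534 were PC-3p-14046_533 at one hairpin and PC-3p-576_10624 at the other, both listed on 1 row.

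Differential expression was tested with edgeR on all 759 sequences, and 341 of them, including 41 of the 80 candidates, passed the filter on low counts. The counts below are of the 41 and describe them only, since some may have passed the filter through the phase where they are high. PC-3p-77335_97, for example, had reads in all 3 libraries at 5 d only. For 3 d vs. 1 d, 0 of the 41 were called at an adjusted p below 0.05, where 0% of all tested sequences were called, and 0 had an unadjusted p below 0.05, against 8.5% of all. DESeq2 and limma also called 0. The lowest adjusted p was 0.764. The libraries did not overlap in 4 candidates that were higher at 3 d (9.76% of the 41, against 6.45% of all tested sequences) and in 0 that were lower (against 3.52% of all). The median log2 fold change was 0.11, against 0.06 over all tested sequences.

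For 5 d vs. 1 d, edgeR called 0 of the 41 at an adjusted p below 0.05, against 1.47% of all tested sequences. At an unadjusted p below 0.05 there were 2, PC-5p-703_8432 and PC-3p-55615_142, against 11.4% of all. DESeq2 and limma called 0 of the 41, and DESeq2 called 1 candidate outside them, PC-3p-34849_234, which had not passed the filter. The lowest adjusted p was 0.386. The libraries did not overlap in 7 candidates that were higher at 5 d (17.1% of the 41, against 10.6% of all) and in 5 that were lower (12.2%, against 7.62% of all). The median log2 fold change was 0.10 against 0.05, and single candidates ran from -3.01, in PC-5p-97399_73, to 2.27, in PC-3p-55615_142.

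For 5 d vs. 3 d, edgeR called 0 of the 41, as it did of all tested sequences (0%), and 0 had an unadjusted p below 0.05, against 2.35% of all. DESeq2 and limma called 0. The libraries did not overlap in 1 candidate that was higher at 5 d (2.44% of the 41, against 3.23% of all) and in 0 that were lower (against 2.64% of all). The median was -0.06, against -0.04. Over all 3 phases edgeR called 0 of the 41, against 1.17% of all tested sequences, and 0 had an unadjusted p below 0.05, against 8.21%. DESeq2 and limma called 0 of the 41, and DESeq2 again called PC-3p-34849_234.

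**Figure D4:**
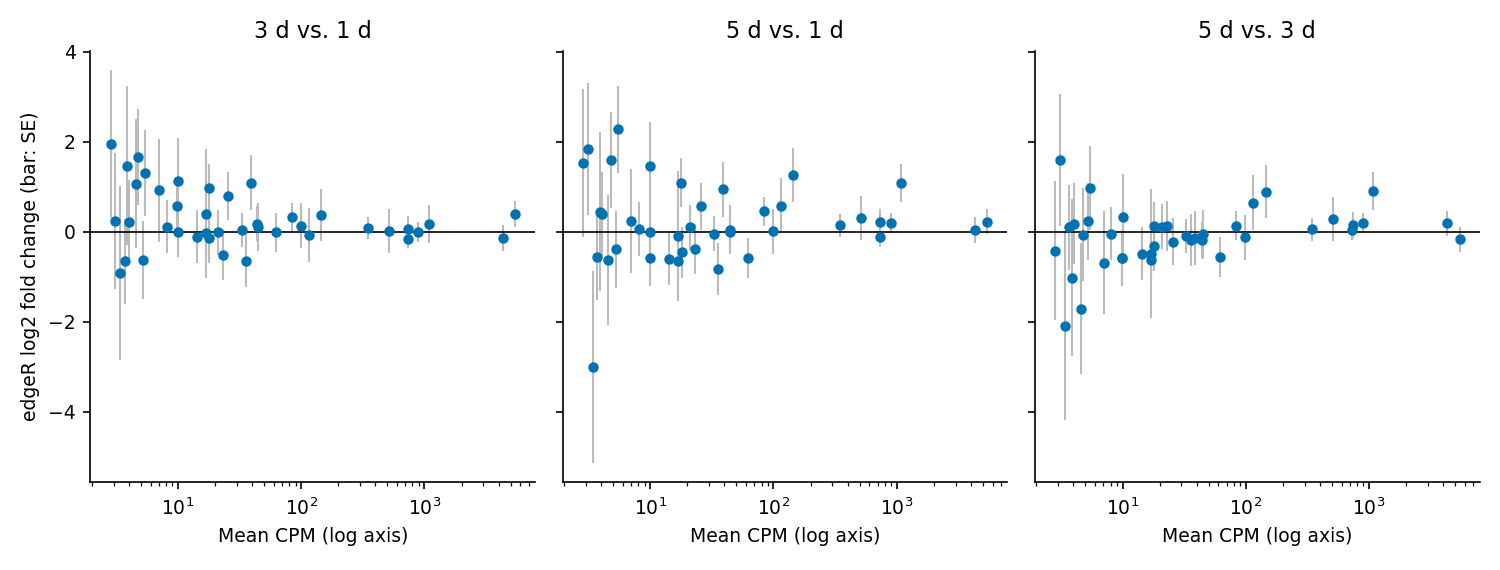
edgeR log2 fold change of the 41 tested candidates against their mean CPM (log axis) in the 3 comparisons of phases, with bars of 1 SE. No candidate was called in any comparison, and values run from -3.01 to 2.27 for 5 d vs. 1 d.

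PC-3p-55615_142, which has the seed of the 3p arms of miR-9a and miR-9b and is in the study's list of differentially expressed miRNAs, was the only candidate whose 3 phases were all separate.
PC-3p-55615_142: tTAAAGCTtgattaccgataaa
It was at 2.82, 0 and 2.21 CPM at 1 d, 5.85, 3.62 and 5.25 at 3 d, and 10.7, 10.0 and 8.36 at 5 d, from 13, 33.5 and 66 reads per phase. Every library of a later phase was above every library of an earlier one. The log2 fold change was 2.27 ± 0.97 (SE) for 5 d vs. 1 d, with an edgeR p of 0.0437 and an adjusted p of 0.408. It was 1.30 ± 0.96 for 3 d vs. 1 d (0.87 without 1 d replicate 2) and 0.97 ± 0.93 for 5 d vs. 3 d. The exact permutation test over the 3 phases gave p = 0.00357, the smallest that 280 groupings allow, reached by 6 of the 341 tested sequences (1.76%), with an adjusted p of 0.203 over the 341.

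The AATATCA group had no call in any comparison. PC-5p-16744_461 was at 7.34, 12.9 and 11.9 CPM at 1 d, 23.1, 24.8 and 13.7 at 3 d, and 17.9, 36.1 and 13.6 at 5 d. Its 1 d libraries lay below all others, with log2 fold changes of 0.96 ± 0.55 (SE, edgeR adjusted p = 0.772) for 3 d vs. 1 d and 1.09 ± 0.55 (adjusted p = 0.495) for 5 d vs. 1 d. The second was 0.53 without 5 d replicate 2. PC-5p-51790_154 was at 3.20, 0 and 2.21 CPM, then 4.88, 10.6 and 3.45, then 5.46, 9.19 and 4.03. Its 1 d libraries also lay below all others, with log2 fold changes of 1.66 ± 1.07 (adjusted p = 0.877) and 1.60 ± 1.07 (adjusted p = 0.614). Summed over the 3 candidates of this seed, without the names on 1 row that share it, the level was 30.5 ± 8.62 CPM at 1 d. It was 58.6 ± 12.2 at 3 d and 56.1 ± 29.1 at 5 d (SD, n = 3).

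PC-3p-41128_197 was at 11.7, 11.7 and 45.2 CPM at 1 d, 34.5, 50.6 and 63.0 at 3 d, and 28.3, 64.7 and 41.2 at 5 d. The phases overlapped because 1 d replicate 3 lay within the later ones, and the log2 fold changes were 1.09 ± 0.61 (SE, edgeR adjusted p = 0.764) for 3 d vs. 1 d and 0.94 ± 0.61 (adjusted p = 0.614) for 5 d vs. 1 d. Without 1 d replicate 3 they were 1.93 (adjusted p = 0.247) and 1.80 (adjusted p = 0.182). Without 1 d replicate 1 they were 0.70 and 0.61, and without 5 d replicate 2 the second was 0.56.

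PC-5p-10471_673, in the study's list, was at 20.9, 15.99 and 21.3 CPM at 1 d, 13.3, 23.5 and 20.4 at 3 d, and 14.9, 10.7 and 11.5 at 5 d. All 5 d libraries lay below all 1 d libraries, and the log2 fold change was -0.66 ± 0.46 (SE, edgeR adjusted p = 0.647) for 5 d vs. 1 d and -0.62 ± 0.46 (adjusted p = 0.992) for 5 d vs. 3 d. Summed over its group of 4 shifted sequences, the level was 32.0 ± 5.07 CPM at 1 d, 28.6 ± 7.47 at 3 d and 22.5 ± 3.11 at 5 d (SD, n = 3).

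**Figure D5:**
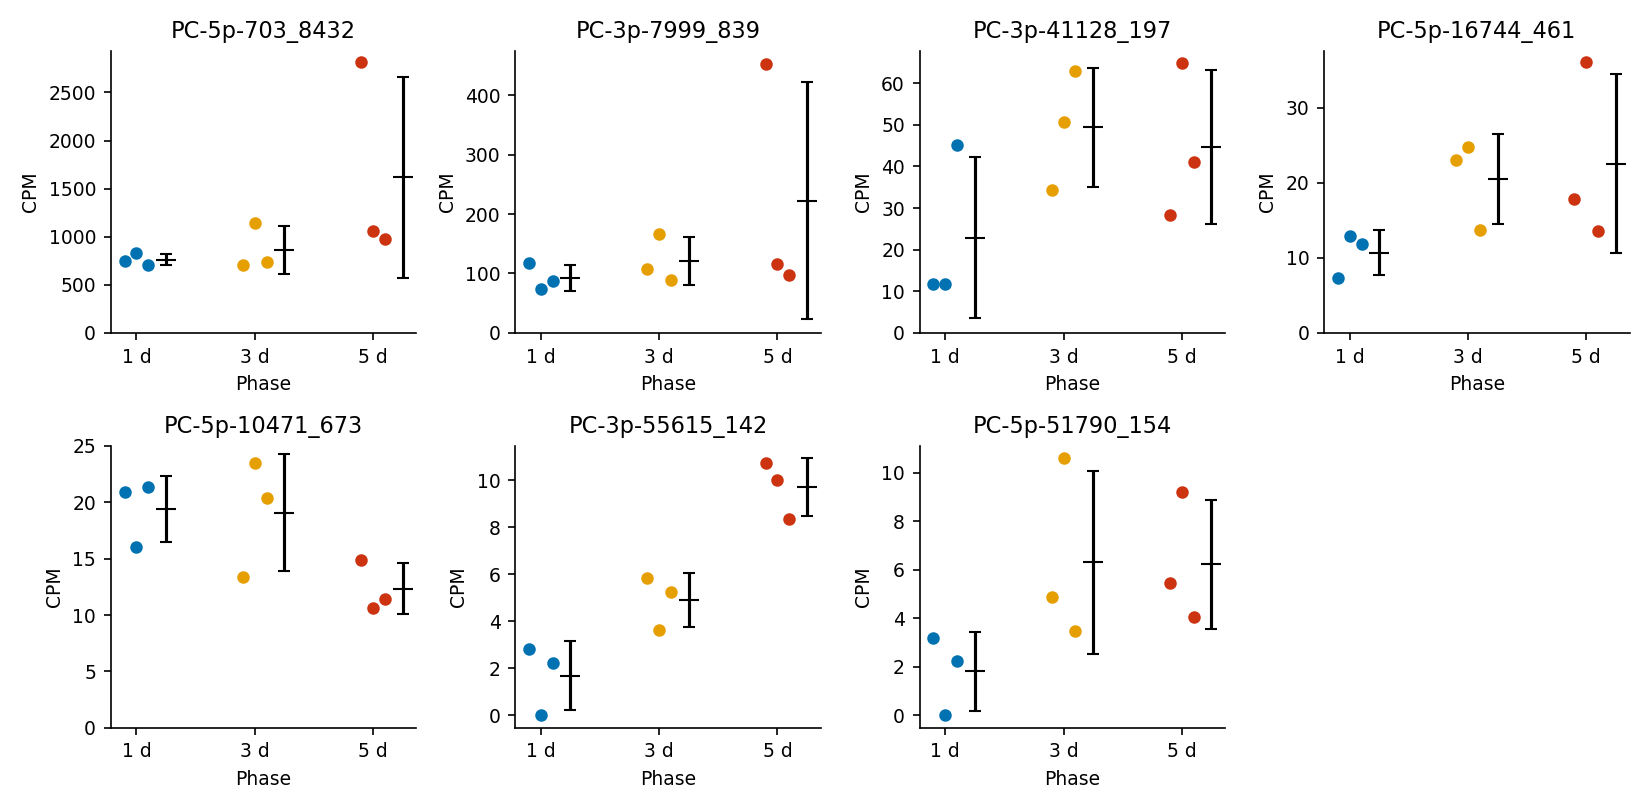
TMM-normalized CPM of the 7 candidates with the smallest edgeR p in the comparisons, by phase, with one dot per library and the mean and SD (n = 3) beside them. PC-3p-55615_142 is the candidate whose phases are all separate, and for PC-5p-703_8432 and PC-3p-7999_839 1 library of 5 d stands apart, at 2821 and 453 CPM.

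The other candidates of the study's list had few reads. The study also measured PC-3p-137910_47 and PC-5p-182481_31 by qRT-PCR on the same total RNA, and reported the same trend as in its sequencing. PC-3p-77335_97, with the miR-279 seed, was at 2.64, 0 and 1.41 CPM at 1 d, 5.53, 0 and 0.75 at 3 d, and 7.73, 4.59 and 5.27 at 5 d, with a log2 fold change of 1.83 ± 1.47 (SE, edgeR adjusted p = 0.731) for 5 d vs. 1 d. The remaining 3 did not pass the filter and were not tested by edgeR with that filter. PC-5p-71845_106 had 26.5 reads over the libraries of 1 d, 2.5 at 3 d and 24 at 5 d. PC-3p-137910_47 had 3.5, 8 and 18 reads, and PC-5p-182481_31 had 3.5, 0 and 12 reads. For PC-5p-182481_31 the 0 at 3 d allows up to 3 reads there. All 3 d libraries of PC-5p-71845_106 lay below those of 1 d and of 5 d, with 2.5 to 15.5 reads per library at 1 d and an exact permutation p over the 3 phases of 0.0357, unadjusted. All 5 d libraries of PC-3p-137910_47 lay above those of 1 d, and all 5 d libraries of PC-5p-182481_31 above those of 3 d, with exact permutation p over the 3 phases of 0.186 and 0.0714, unadjusted. The study listed these 3 candidates from the same libraries, so these permutation p-values are not independent support for a change.

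A pair of further candidates were chosen after their values were seen. PC-5p-97399_73 had the lowest log2 fold change for 5 d vs. 1 d, -3.01 (edgeR adjusted p = 0.647), with 35 reads at 1 d, 15.5 at 3 d and 3.5 at 5 d. All reads at 5 d came from replicate 3, and without that library the fitted value was -6.90 against libraries at 0, which is no bound. PC-3p-34849_234 did not pass the filter, and it was the candidate called by DESeq2. It was at 1.88, 27.7 and 34.6 CPM at 1 d, 0, 1.55 and 2.40 at 3 d, and 0.942, 1.04 and 0 at 5 d, so its 1 d level came from 2 libraries. The DESeq2 log2 fold change for 5 d vs. 1 d was -5.21 (adjusted p = 0.0172), and edgeR without the filter gave -5.01 (adjusted p = 0.0481).

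The longest candidates varied widely between libraries of a phase. PC-5p-11737_614 ranged from 0 to 41.2 CPM, and both ends lay at 5 d. PC-3p-27835_291 ranged from 0 to 17.3 CPM and PC-3p-54772_144 from 0 to 15.5 CPM, both highest in 3 d replicate 2. PC-3p-27835_291 was at 0 in 1 d replicate 2, and PC-3p-54772_144 was at 0 in 1 library of each phase. PC-3p-4791_1281 had phase means of 42.8, 46.7 and 44.7 CPM, with single libraries from 19.1 to 60.2 CPM. PC-3p-226389_22 had reads in 4 libraries, with 51.1% of its summed CPM in 1 d replicate 1.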

How the data were processed

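Small RNA of 9 libraries was analysed. The authors cleaned reads of 18 to 26 nt with ACGT101-miR, removed other RNA families and repeats, searched miRBase 22.0 and the genome, and folded flanking sequence with RNAfold. No source used here names the ACGT101-miR version or the build of the genome. The extraction protocol in the labels describes an mRNA library, while the table holds sequences of 18 to 26 nt. The deposited raw columns hold estimated counts, some of them not whole. The deposited normalized columns hold a signal, the raw reads times one factor per library. The authors also gave the length, dG and the percent of C and G of each hairpin.

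Rows of one mature sequence were counted once (759 sequences) and rounded. edgeR 4.0.16 (quasi-likelihood, TMM, default filter by phase) in R 4.3.3 was fitted to all 9 libraries with phase as the only term, and calls had a Benjamini-Hochberg adjusted p below 0.05. Exact permutation tests were 2-sided, with a smallest p of 0.1 for 3 libraries against 3. DESeq2 1.42.0 and limma 3.58.1 on log2(normalized count + 1) were alternatives, with other scalings, filters, units and sample sets. The edgeR code was checked on simulated counts with a smaller spread than that fitted here (common biological coefficient of variation 0.692). That check does not tell how many changes of the size seen here would be called. Python 3.11.15 and pandas 2.3.3 were used for tables.

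Named candidates are the 10 most abundant, the 3 with the smallest p in each comparison, those in the study's list of differentially expressed miRNAs, the 3 shortest, the 3 longest and the 3 with the lowest median dG. The rule also took the 5 with most rows. All stand on 2 rows, so ties were ordered by mean CPM and these 5 are among the 10 most abundant. Others are named as examples of positions, sequences and arms. The candidates and lists were chosen with earlier results of these data known.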

Additional observations from a re-analysis of the deposited data

How the results depend on the processing

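The number of candidates called stayed at 0 for 3 d vs. 1 d and for 5 d vs. 3 d under every alternative run. For 5 d vs. 1 d it was 1 without a filter, 1 with DESeq2 and 2 at an unadjusted p, and over all 3 phases it was 1 without a filter and 1 with DESeq2. The call without a filter and with DESeq2 was PC-3p-34849_234, which the filter had removed. Leaving out each library in turn gave 0 called candidates in every comparison.

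Over all tested sequences the calls for 3 d vs. 1 d, 0 in the main analysis, were 1 with library totals, 19 without a filter, 1 with a filter of 10 CPM, 1 with DESeq2, 1 with limma and 29 at an unadjusted p, and 0 to 2 with a library left out. For 5 d vs. 1 d, 5 became 26 without a filter, 10 with DESeq2, 3 with limma, 1 with only the libraries compared and 39 at an unadjusted p, and 0 to 4 with a library left out. For 5 d vs. 3 d, 0 became 2 without a filter and 8 at an unadjusted p. Over all 3 phases, 4 became 27, 8, 1 and 28 without a filter, with DESeq2, with limma and at an unadjusted p, and 0 to 2 with a library left out. The causes were not tested.

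The main analysis did not treat libraries with the same replicate number as pairs. Correlations between phases ran from -0.386 to 0.417 for same-numbered libraries and from -0.512 to 0.495 for the others. With so few libraries these values cannot decide whether the numbers mark pairs. With the replicate number as a block, 0 candidates were called in every comparison, and of all sequences 0 were called for 3 d vs. 1 d, 4 for 5 d vs. 1 d, 0 for 5 d vs. 3 d and 0 over all 3 phases.

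Of 542 recomputed log2 fold changes of named candidates, 9 changed sign. For PC-5p-542_11497 (5 d vs. 1 d) library totals gave 0.074. With a library left out the ranges for 5 d vs. 1 d were -0.17 to 0.21 for PC-5p-41_172656, -0.10 to 0.30 for PC-3p-305_21991, -0.020 to 0.72 for PC-5p-387_16479 and -0.019 to 0.20 for PC-3p-819_7098, and for 5 d vs. 3 d -0.14 to 1.25 for PC-3p-7999_839. The mean share of reads was 2.86% with counts summed over rows. Detection in any library of a phase held for 70, 69 and 75 candidates. Of the 80 candidates, 39 did not pass the filter on low counts and were not tested by edgeR with that filter.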
